A study of Mus musculus with 4 samples.

Results

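The replication-dependent histone genes of the Hist1, Hist2 and Hist3 clusters were followed in leukemia stem cells (LSCs), the cells held to sustain an acute myeloid leukemia (AML). Members were the protein-coding genes of these clusters, found by Entrez ID through their current or older symbols, and 66 of the 27179 genes in the deposited table qualified. They comprise 6 H1, 18 H2A, 18 H2B, 12 H3 and 12 H4 genes, of which 54 lie in Hist1 on chromosome 13, 10 in Hist2 on chromosome 3 and 2 in Hist3 on chromosome 11. One H2B gene, Hist1h2br, is listed as H4bc24 in the RefSeq table and was placed in H2B by its older symbol.

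The samples were 2 wildtype and 2 B7-H4-null LSC samples from bone marrow of a mouse AML model on the C57BL/6 strain, all sorted as YFP+, Mac-1+ and c-Kit+, that is, for a yellow fluorescent protein, a myeloid integrin and the receptor for stem cell factor. How the leukemia was induced, what drives YFP, the allele behind the null genotype, the age of the mice and whether each sample is 1 animal or a pool were not stated in the labels. The p-values therefore cover the spread among the 4 samples only, and that spread may be technical. Vtcn1 encodes B7-H4, a surface ligand known to restrain T cells, and the series compares gene expression between the genotypes. Expression was measured by RNA sequencing and deposited as RPKM, reads scaled to gene length and library size.

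Histones are the proteins around which DNA is wound. H2A, H2B, H3 and H4 form the nucleosome core, and H1 binds the linker DNA between nucleosomes. The replication-dependent genes supply histones while DNA is copied in S phase. They have no introns in their standard form, and their mRNAs normally end in a conserved stem-loop in place of a poly(A) tail. The stem-loop is bound by the protein SLBP, and some of these genes can also make longer, polyadenylated mRNAs. The TruSeq version 2 protocol named in the labels selects polyadenylated RNA, so the levels below are of the histone RNA that passed such a selection.

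The stem-loop was looked for in the GENCODE M21 transcripts of the members, because it defines the family. Of the 66 genes, 45 had an annotated transcript that holds it, 21 to 58 bases after the stop codon. Of the other 21, 15 had annotated transcripts that end within 30 bases of the stop codon. The sequences of 1 or 2 members per class are shown 5′ to 3′, with the 16-base stem-loop in capitals and up to 5 bases on either side in lower case.
H1f2: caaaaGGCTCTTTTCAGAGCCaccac
H2ac6: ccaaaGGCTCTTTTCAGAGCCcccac
H2bc8: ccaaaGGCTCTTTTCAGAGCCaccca
H3c1: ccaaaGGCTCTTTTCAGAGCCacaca
H4c9: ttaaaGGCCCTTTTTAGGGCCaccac
H4c2: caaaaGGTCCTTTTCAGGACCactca
The letters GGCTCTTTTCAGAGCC were found in 26 of the 34 H1, H2A, H2B and H3 genes with a stem-loop and in 0 of the 11 H4 genes. The form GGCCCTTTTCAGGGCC was found in 6 of the 11 H4 genes.

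Promoters were searched for elements known from histone genes, and 61 members had a promoter in the RefSeq table (GRCm38.p6). The 250 bases before the start were searched on both strands for the TATA box TATAAA, the CCAAT box CCAAT, the octamer ATTTGCAT, known from H2B promoters, and the H1 box AAACACA. None of these motifs contains another. CCAAT was present in 6 of 6 H1, 18 of 18 H2A and 16 of 16 H2B promoters, in 8 of 10 H3 promoters and in 3 of 11 H4 promoters, beside 33.8% of all 32851 promoters in the table. The octamer was present in 7 of 18 H2A and 7 of 16 H2B promoters and in 0 of the H1, H3 and H4 promoters, beside 1.60% of all promoters. Head-to-head H2A and H2B neighbours share bases, so the same octamer can be counted for both genes. The H1 box was present in 5 of 6 H1 promoters, beside 6.25%, and TATAAA in 29 of the 61 members, beside 12.4%. A match describes the letters only.

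In the Hist1 cluster H2A and H2B genes often sit head to head and share the bases between them. The stretch between H2ac6 and H2bc4, at chr13:23683960-23684198 on the minus strand, and the one between H2ac8 and H2bc8, at chr13:23571221-23571399 on the minus strand, are shown because H2bc4 and H2bc8 had the largest log2(RPKM + 1) differences among the tested members. The bases before H1f5, at chr13:21780626-21780775 on the minus strand, and before H4c9, at chr13:22041363-22041512 on the minus strand, show an H1 and an H4 promoter. Each is written toward the gene named first, up to its start, with the 4 motifs in capitals on either strand.
H2ac6 and H2bc4: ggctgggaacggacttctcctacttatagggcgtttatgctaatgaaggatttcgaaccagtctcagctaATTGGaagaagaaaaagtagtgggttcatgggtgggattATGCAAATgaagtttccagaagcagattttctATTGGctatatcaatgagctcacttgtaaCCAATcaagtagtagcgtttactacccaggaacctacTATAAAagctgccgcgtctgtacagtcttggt
H2ac8 and H2bc8: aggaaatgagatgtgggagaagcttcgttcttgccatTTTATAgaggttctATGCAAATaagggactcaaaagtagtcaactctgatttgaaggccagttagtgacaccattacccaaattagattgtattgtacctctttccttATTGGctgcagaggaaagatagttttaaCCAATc
H1f5: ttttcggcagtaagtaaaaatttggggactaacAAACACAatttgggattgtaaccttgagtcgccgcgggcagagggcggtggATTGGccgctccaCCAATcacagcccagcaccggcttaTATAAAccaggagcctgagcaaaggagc
H4c9: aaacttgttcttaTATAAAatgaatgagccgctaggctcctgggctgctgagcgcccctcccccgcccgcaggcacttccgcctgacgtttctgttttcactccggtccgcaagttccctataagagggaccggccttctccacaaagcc
In the first of these the octamer, read on the opposite strand, stands 130 bases before the H2ac6 start, and a TATA box stands 32 bases before it.

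The totals behind the RPKM scaling, recovered from the steps between low values, were 9419425 to 10814448 reads per library. Pearson's r across the 12107 tested genes was 0.957 between the wild type libraries, 0.948 between the B7-H4-null libraries and 0.909 to 0.950 between genotypes, the lowest between replicate 2 of wild type and replicate 1 of B7-H4-null. Vtcn1 had 0 and 0 reads in wild type and 1 and 1 reads in B7-H4-null, too few to check the labels. The sorting markers Itgam and Itgb2 (Mac-1) and Kit (c-Kit) were read in all 4 libraries. Itgb2 stood at 213 and 213 RPKM in the wild type libraries and 123.1 and 146 RPKM in the null libraries, and Itgam at 114 and 86.9 against 82.9 and 59.9 RPKM, so both Mac-1 chains were lower in both null libraries. Kit overlapped, at 24.0 and 7.19 against 11.02 and 9.37 RPKM. The part of this in the histone result was not tested. Of the erythroid markers, Hba-a1 and Hbb-bs were under 2 RPKM in every library, and 1 of 9 in the table, Tfrc, which many dividing cells use, passed the filter, at 26.1 to 171 RPKM. In bulk samples like these, fewer cells of a type and less RNA per cell cannot be told apart.

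Histone RNA was higher in both B7-H4-null libraries than in both wild type libraries. Summed over the 66 genes, the level was 188 and 239 RPKM for wild type (replicates 1 and 2) and 684 and 480 RPKM for B7-H4-null (replicates 1 and 2). The means were 213 ± 35.8 and 582 ± 144 RPKM (SD, n = 2), a 2.73-fold higher level in B7-H4-null, and the lower null library stood 2.01-fold above the higher wild type library. In recovered reads these sums were 3819 over the wild type libraries and 9786 over the B7-H4-null libraries. RPKM sums can move with how reads shared between near-identical genes were divided, because the lengths of these genes differ. With 2 libraries against 2, the smallest two-sided p of an exact permutation test is 0.33, so no such test was made.

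**Figure D1:**
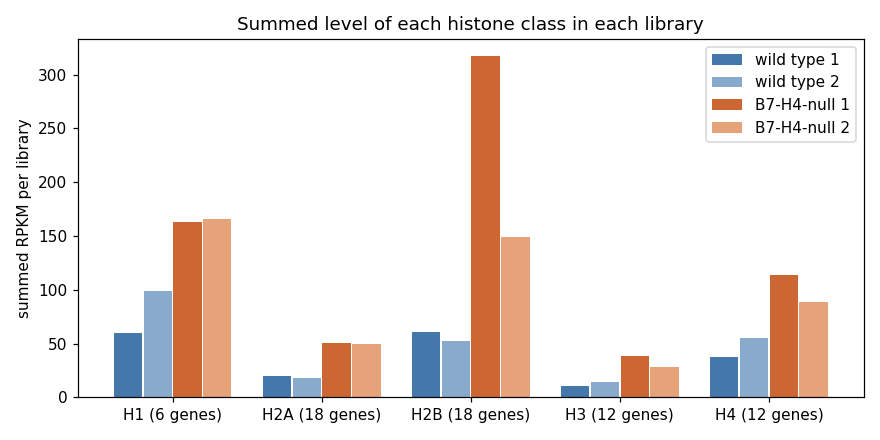
Summed RPKM (vertical axis, linear from 0) of the genes of each histone class (horizontal axis), 1 bar per library. In every class both B7-H4-null bars stand above both wild type bars, and the H2B bar of B7-H4-null replicate 1, at 317 RPKM, is the tallest.

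In all 5 classes both null libraries stood above both wild type libraries. H2B had the widest gap between the means, 56.5 ± 6.27 RPKM in wild type libraries and 233 ± 119 RPKM in null libraries, 4.13-fold. Without B7-H4-null replicate 1 it was 2.64-fold, beside 2.62-fold for H2A under the same omission. Much of that came from 1 gene, H2bc4, and without it H2B stood at 41.4 ± 7.85 and 108 ± 27.2 RPKM, 2.60-fold. H2A had 18.9 ± 1.59 and 50.2 ± 0.825 RPKM (2.65-fold) and was the class with the least spread between replicates on the log2 scale. H3 had 12.4 ± 2.96 and 33.5 ± 7.64 RPKM (2.70-fold), and H4 had 46.4 ± 12.9 and 101 ± 18.2 RPKM (2.18-fold). H1 had 79.2 ± 27.8 and 164 ± 1.81 RPKM (2.07-fold), or 22.6 ± 1.76 and 71.7 ± 6.24 RPKM (3.17-fold) without H1f2. Each value is a mean ± SD with n = 2. Whether the classes differ from one another in this was not tested.

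No single histone gene passed the test across all genes. With limma on log2(RPKM + 1) and Benjamini-Hochberg adjustment at 0.05, 0 of the 52 tested members were called, beside 0.0991% of all 12107 tested genes (0.0413% higher and 0.0578% lower), and the lowest adjusted p of a member was 0.134. At an unadjusted p under 0.05, 35 members lay higher and 0 lower, beside 5.05% of tested genes higher (612) and 7.2% lower (872). Median-ratio scaling of the libraries turned that last split to 789 higher and 648 lower.

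The direction was nearly uniform all the same. Of the 52 tested members, 51 had a log2 difference above 0 and 1, H3c14, below it, where 41.5% of all tested genes lay above 0. The median difference was 0.96 for these members and −0.09 for all tested genes. A filter of 1 RPKM in 2 libraries can favour genes that are high in 1 group: 34 of the 52 passed in both wild type libraries, 6 only through the B7-H4-null libraries, and 12 through a mix. Without any filter, both B7-H4-null libraries lay above both wild type libraries for 51 of the 66 members and below them for 0, and the groups overlapped for 15. The share of all genes above 0 in any library with this order was 14.4%. Among the 34 members at 1 RPKM or more in both wild type libraries, 29 had it, where 14.5% of genes chosen the same way did. A gap of 2-fold or more between the lowest null and the highest wild type library was found for 16 of the 52 tested members, beside 1.67% of tested genes, and no overlap in that direction was seen for 43 of the 52, beside 16% (28% of tested genes lay below without overlap). The members share sequence, processing and library, so they are not separate replicates of the comparison.

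**Figure D2:**
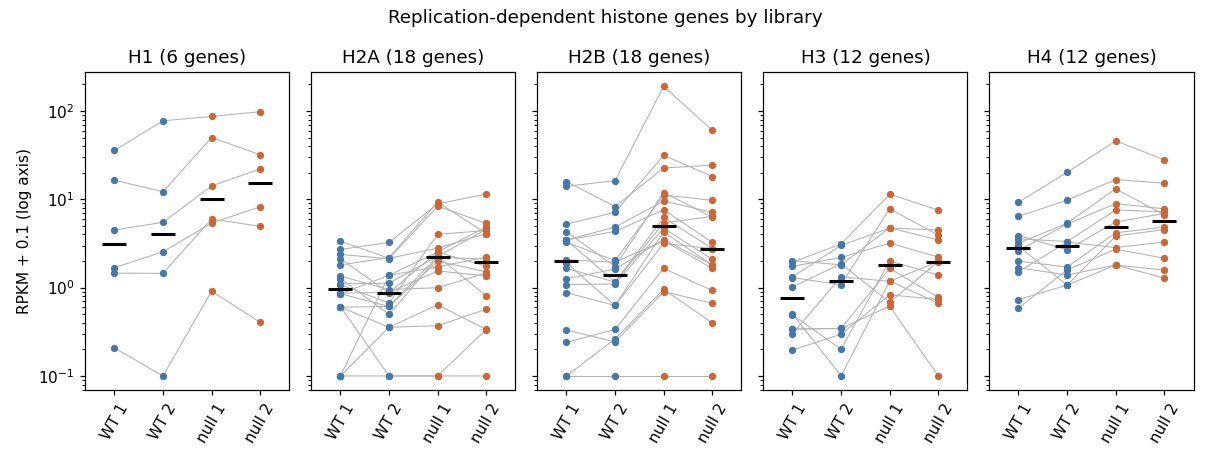
RPKM + 0.1 (vertical axis, log scale) of each of the 66 histone genes in each library (horizontal axis), 1 panel per class; grey lines join a gene's values and black bars mark the class median. The points of the B7-H4-null libraries are shifted upward in every class, with a few genes near 0 throughout.

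The linker histones H1 were led by H1f2. H1f2 (H1.2, gene ID 50708, chromosome 13, 23738807 to 23739531) was the highest member in wild type, with 35.7 and 77.5 RPKM there and 86.8 and 98.2 RPKM in B7-H4-null. The groups did not overlap, but wild type replicate 2 came close to the null libraries, and the log2 difference of 0.80 ± 0.385 (SE) had an adjusted p of 0.471 in limma. H1f1 (gene ID 80838, 23763668 to 23764412) stood at 16.4 and 12.1 RPKM in the wild type libraries and 50.03 and 31.9 RPKM in the null libraries, 2.88-fold in means. H1f5 (gene ID 56702, 21779832 to 21780625) had 4.40 and 5.39 against 14.1 and 22.0 RPKM, 3.68-fold, and H1f4 (gene ID 50709) 1.58 and 2.45 against 5.28 and 8.14 RPKM, 3.33-fold. Every one of the 5 tested H1 genes lay above wild type in both null libraries, beside 16% of tested genes. H1f6, the testis linker histone, had 1 read over the wild type libraries and 10 over the null libraries and was below the filter.

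Among the H2A genes the levels were low. H2ac6 (gene ID 319164, chromosome 13, 23683473 to 23683959) stood at 2.61 and 3.15 RPKM in the wild type libraries and 8.77 and 11.4 RPKM in the null libraries, 3.50-fold, with a log2 difference of 1.51 ± 0.264 (SE, limma adjusted p = 0.137). H2aw, the H2A gene of Hist3 (gene ID 319162, chromosome 11, 58954685 to 58955192), had 2.28 and 2.02 against 8.27 and 5.25 RPKM. H2ac18 of Hist2 (gene ID 15267, chromosome 3, 96245497 to 96246052), whose coding sequence is shared with H2ac19, had 1.71 and 2.09 against 9.18 and 4.0 RPKM. In each of these the null libraries lay above. Not all H2A genes did so: H2ac15 had 3.26 and 2.05 against 2.70 and 4.0 RPKM, and H2ac11 1.25 and 0.851 against 0.898 and 1.37 RPKM, with overlap in both.

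On the log2(RPKM + 1) scale H2bc4, H2bc8 and H2bc3 had the largest differences of the tested members. That order depends on the pseudocount. Among the named members, H3c4 (2.23) stood above H2bc3 (2.02) and H2bc8 (1.97) with a pseudocount of 0.1. Members not named, several of them low in wild type, were not ranked at that setting. H2bc4 (Hist1h2bc, gene ID 68024, chromosome 13, 23684199 to 23692480) stood at 13.9 and 16.2 RPKM in the wild type libraries and 190 and 60.3 RPKM in the null libraries, with 220 and 1780 reads over the groups. The log2 difference was 2.76 ± 0.509 (SE, limma adjusted p = 0.147), and B7-H4-null replicate 1 was well above replicate 2, while both stood far above wild type. Of its coding windows of 50 bases, 97.6% also occur in other members, mostly H2bc8, so the division of its reads is uncertain. No stem-loop was found in its annotated transcript, which runs 742 bases past the stop codon. H2bc4 made up 7.42% and 6.78% of the summed histone RPKM in wild type and 27.8% and 12.6% in B7-H4-null. H2bc8 (gene ID 319181, 23571400 to 23571863) had 5.13 and 7.04 against 31.4 and 18.0 RPKM, 4.06-fold. H2bc3 (gene ID 319178, 23746734 to 23747223) had 3.15 and 1.93 against 11.1 and 9.66 RPKM, 4.08-fold, with a log2 difference of 1.70 ± 0.282 and the lowest adjusted p of the members, 0.134 in limma. H2bc11 (gene ID 319183) was high in both genotypes, at 15.8 and 8.19 against 22.6 and 24.3 RPKM. H2bc21, of Hist2 (gene ID 319190, chromosome 3, 96221072 to 96223738), had 1.96 and 1.85 against 3.28 and 1.55 RPKM, with overlap.

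H3 had the lowest summed level of the classes, over 12 genes where H2A has 18. H3c1 (gene ID 360198, chromosome 13, 23761885 to 23762386) stood at 1.85 and 3.02 RPKM in the wild type libraries and 11.3 and 7.45 RPKM in the null libraries, 3.86-fold. H3c4 (gene ID 319149) had 1.20 and 0.980 against 7.75 and 3.82 RPKM, 5.31-fold on 9 and 47 reads. H3c6 and H3c11 lay above wild type in both null libraries as well, at 2.21-fold and 2.18-fold. H3c14 of Hist2 (gene ID 15077, chromosome 3, 96246685 to 96247348) was the exception, with 0.918 and 1.77 against 0.582 and 1.88 RPKM, and a log2 difference of −0.11 ± 0.382. Leaving out wild type replicate 2 gave 0.15, and leaving out B7-H4-null replicate 1 gave 0.32. Its coding sequence is shared whole with other H3 genes, mostly H3c15, so its reads could have been divided between copies. It had 49 and 47 reads over the groups.

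H4 genes, which encode the most conserved histone, had moderate levels. H4c9 (gene ID 319158, chromosome 13, 22040960 to 22041362) stood at 9.18 and 20.1 RPKM in the wild type libraries and 45.9 and 27.9 RPKM in the null libraries, 2.52-fold. H4c4 (gene ID 319156) had 6.32 and 9.68 against 16.7 and 15.1 RPKM, 1.99-fold, H4c8 (gene ID 69386) 3.09 and 5.25 against 13.1 and 6.56 RPKM, and H4c3 (gene ID 319155) 2.53 and 5.16 against 8.85 and 7.71 RPKM. None of these overlapped between genotypes. H4c11, with 1.58 and 1.29 against 1.70 and 1.48 RPKM on 9 and 10 reads, did overlap. All 12 H4 genes were tested, and 12 had a difference above 0, beside 41.5% of tested genes. Of the 12, 10 lay above wild type in both null libraries, beside 16% of tested genes.

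**Figure D3:**
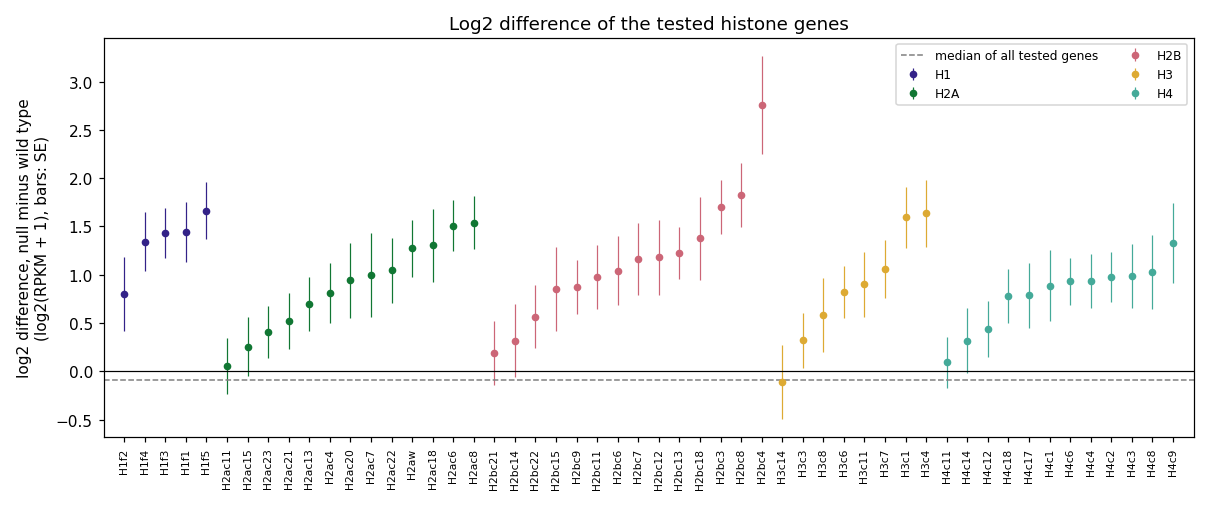
Log2 difference of log2(RPKM + 1), B7-H4-null minus wild type (vertical axis), with its SE as bars, for each of the 52 tested histone genes (horizontal axis), coloured by class; the dashed line is the median of all tested genes. All but H3c14 lie above 0, and H2bc4 is highest at 2.76.

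The testis-type members were all but absent. H2ac1 had 0 and 1 reads over the groups and H2bc1 was at 0 in every library, which allows a level of up to 3 reads in each. H2bu2, the H2B gene of Hist3, had 1 and 7 reads. In all, 14 members were under the filter, and 61 of the 66 had more reads in the null libraries, 3 the same number (H2ac10, H3c13 and H2bc1, the last with no read) and 2 fewer (H2ac12 and H3c14), all chosen after their values were seen. No share of all genes was taken beside the 61 of 66, and these reads were not scaled to the library totals. Intervals and floors on reads cover counting error only.

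Head-to-head H2A and H2B neighbours were compared because they share the bases between them, and the pairs named were chosen after their values were seen. There were 12 such pairs under 1000 bases apart, and in 6 of them both genes lay above wild type in both null libraries. Of single genes above 0 in any library, 14.4% had this order, and no share for other gene pairs was taken. H2ac8 and H2bc8, 179 bases apart, stood 5.32-fold and 4.06-fold higher in means, and H2ac6 and H2bc4, 239 bases apart, 3.50-fold and 8.32-fold. Partners could also part: H2ac11 stood at 1.08-fold with overlap and H2bc11 at 1.95-fold without, and H2ac20 at 2.57-fold without overlap and H2bc21 at 1.27-fold with it. Over H2A and H2B genes, the median log2 difference was 1.27 in the 11 tested genes with the octamer and 0.86 in the 14 tested without it, a description with no test. H2bc4 and H2bc21 are in neither set, since their promoters were not matched, although the stretch that H2bc4 shares with H2ac6 holds the octamer.

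The length over which reads were counted differed widely between members, which bears on comparing their levels. Recovered from the values, it equalled the coding sequence for 31 members and was longer for 34, with a range of 312 to 2977 bases. The members counted over the coding sequence only, where no reads of a longer 3′ end enter, summed to 66.4 ± 5.67 RPKM in wild type libraries and 150 ± 4.47 RPKM in null libraries, 2.25-fold. Those with a longer length summed to 147 ± 41.5 and 433 ± 139 RPKM, 2.94-fold. In both sets both null libraries stood above both wild type libraries. The median log2 difference was 1.04 in the 19 tested members whose annotated transcript runs 200 bases or more past the stop codon and 0.93 in the 33 others.

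Near-identical coding sequences limit what can be said of single genes. The library kit does not mark strand, so a member's reads cannot be told apart from those of a gene on the opposite strand either. Of the 50-base windows of each coding sequence, a median of 75.3% also occurred in another member, 12 members had every window in common with another, and 6 had none. The 12 tested members with under 50% of windows shared had a median log2 difference of 1.10, and the 9 tested with 90% or more 0.79. Both null libraries lay above both wild type libraries for 11 of all 16 members with under 50% shared, beside 14.4% of genes above 0 in any library.

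DNA replication genes, which are active in the same phase of the cell cycle as these histone genes, had small differences in both directions. Of 35 such genes, all tested, 21 had a difference above 0 and 14 below 0 (median 0.11), where 41.5% of all tested genes lay above 0. Both null libraries lay above wild type for 4 of them, beside 16% of tested genes. Pcna, the sliding clamp of replication, stood at 133 and 102 RPKM in the wild type libraries and 177 and 130 RPKM in the null libraries, and Mcm6, a subunit of the replicative helicase, 168 and 120 against 130 and 203 RPKM. Both overlapped. Mcm6 changed sign when wild type replicate 2 or B7-H4-null replicate 2 was left out. Differences in this list ran from −0.38 for Fen1, a flap endonuclease, which was 0.053 without B7-H4-null replicate 1, to 0.55 for Pola2, a subunit of the primase complex. Neither this list nor any other below had a member past the limma threshold.

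Median-ratio scaling shifts the median of all tested genes from −0.09 to 0.01 and the share of them above 0 from 41.5% to 50.7%. With it, the counts above 0 rose to 26 of 35 for DNA replication and 5 of 15 for the G1/S list below. They rose to 7 of 16 for the mitotic list and 18 of 25 for the histone chaperones, both below.

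Cell cycle regulators had medians below that of all tested genes. Of 15 genes of G1/S cyclins, kinases and E2F factors, with inhibitors among them, 3 had a difference above 0 and 12 below 0 (median −0.25). Cdk2, the kinase that drives S phase and phosphorylates the histone gene activator Npat, had 72.0 and 63.5 against 49.4 and 52.2 RPKM, and E2f2 had 22.9 and 33.8 against 8.31 and 18.8 RPKM. Cdkn1a, the p21 inhibitor of these kinases, had 50.1 and 38.9 against 174 and 56.6 RPKM. Cdkn1b, another inhibitor, went the other way, at 21.8 and 36.5 against 15.8 and 13.7 RPKM. Rb1 was also lower, at 12.6 and 11.1 against 8.56 and 9.32 RPKM. Cdkn1b and Rb1 were named after their values were seen. Of 16 mitotic genes, 3 had a difference above 0 and 13 below 0 (median −0.21), where 41.5% of all tested genes lay above 0. Ccnb2, a mitotic cyclin, stood at 91.9 and 114 against 83.6 and 84.4 RPKM. Cenpf, a kinetochore protein, had the lowest difference, with 7.52 and 9.55 against 4.41 and 4.26 RPKM, and Bub1, a checkpoint kinase, the highest, with 13.96 and 13.7 against 21.9 and 14.6 RPKM.

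The genes that act on histone mRNA and carry histones had medians near 0, and that of the first list below was 0.04 with median-ratio scaling. Of 24 tested genes of histone transcription and 3′ processing, 12 had a difference above 0 and 12 below 0 (median −0.05). Among the 24, 9 lay below wild type in both null libraries and 2 above, beside 28% and 16% of tested genes. Slbp, the stem-loop binding protein, had 57.5 and 43.9 against 95.9 and 50.3 RPKM, with overlap, and Pou2f1 (Oct-1), which binds the octamer, 2.76 and 2.85 against 1.12 and 1.61 RPKM. Of 25 histone chaperones, 13 had a difference above 0 and 12 below 0 (median 0.01). Npm1 (nucleophosmin) had the highest difference among them, at 149 and 143 against 245 and 297 RPKM. Hjurp, the chaperone of CENP-A, had the lowest, at 34.7 and 28.1 against 27.4 and 20.95 RPKM.

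Histone genes outside these clusters, mostly variants, formed a mixed list that also holds H4f16, an H4 gene that stands alone, H2ax and the centromere histone gene Cenpa. Of 13 tested, 9 had a difference above 0 and 4 below 0 (median 0.12, range −0.58 to 0.95). H3f3b, which encodes the replacement histone H3.3, stood at 289 and 257 RPKM in the wild type libraries and 651 and 426 RPKM in the null libraries, a log2 difference of 0.95 ± 0.31 (SE, limma adjusted p = 0.328). Macroh2a1 had 302 and 306 against 327 and 470 RPKM. H1f0, the linker histone of resting and differentiated cells, had 136 and 135 against 77.2 and 105 RPKM.

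Other RNAs that lack a poly(A) tail had a median difference near that of the clustered histone genes. Of 31 such RNAs in the table, 22 were tested, and 19 had a difference above 0 and 3 below 0 (median 0.94, range −1.73 to 3.93). The filter can favour RNAs that are high in 1 group here too, since some passed through the libraries of 1 genotype only. Their summed level was 84.8 and 49.5 RPKM in the wild type libraries and 208 and 266 RPKM in the null libraries, and 15 of the 31 lay above wild type in both null libraries, beside 14.4% of genes above 0 in any library. Another 2 lay below, and 3 were at 0 throughout. Rnu11, the U11 RNA of the minor spliceosome, had 6.39 and 2.80 against 44.2 and 142 RPKM, and Rnu7, the U7 RNA that guides histone 3′ end cleavage, 6.36 and 8.12 against 10.3 and 13.4 RPKM. Scarna17, a guide RNA of Cajal bodies, had 3.18 and 1.62 RPKM against 0 in both null libraries, which allows a level of up to 3 reads in each. Many of these RNAs are short, so a few reads can make several RPKM. Their part in the histone result was not tested.

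Late neutrophil genes, products of cells that have mostly left the cell cycle, had the reverse order of libraries. All 10 lay below wild type in both null libraries, beside 28% of tested genes, with a median of −1.56 and summed levels of 23341 and 13701 RPKM (wild type libraries) and 6733 and 8409 RPKM (null libraries). S100a9 stood at 7973 and 5186 against 2152 and 2870 RPKM, and Ltf at 352 and 135 against 8.91 and 39.1 RPKM. Of 6 monocyte and macrophage genes, 5 had a difference above 0 and 1 below 0 (median 0.36), beside 41.5% of tested genes above 0. Of the 6, 2 lay above wild type in both null libraries, beside 16% of tested genes. Their summed level, most of it from Ly6c2, was 1007 and 1297 RPKM in wild type, then 1494 and 1884 RPKM in the null libraries. Cd68, a lysosomal protein of macrophages, stood at 60.5 and 63.4 against 147 and 139 RPKM, and Ly6c2, a monocyte surface protein, at 843 and 1079 against 1201 and 1458 RPKM. These 2 were named after their values were seen. The part of either list in the histone result was not tested.

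**Figure D4:**
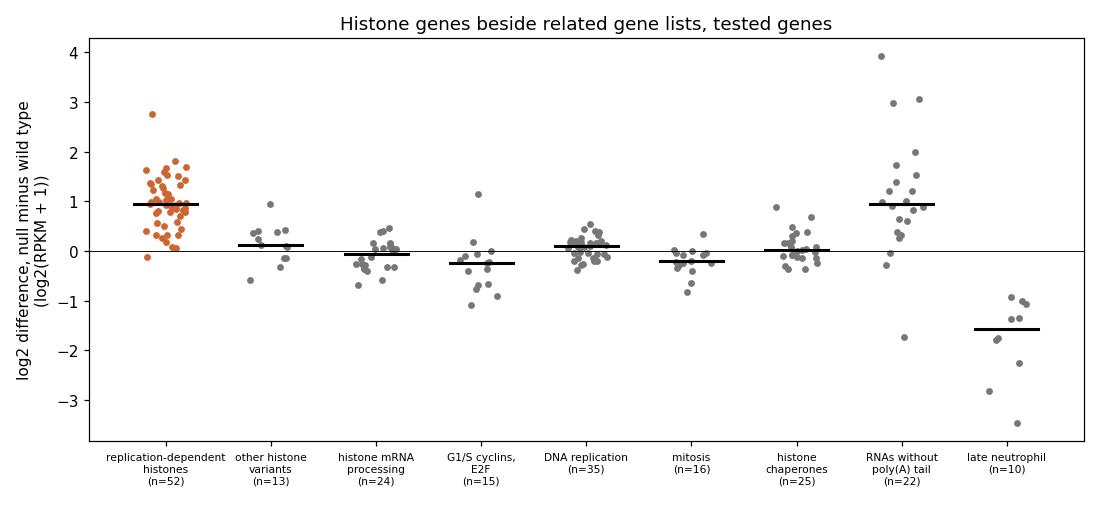
Log2 difference of log2(RPKM + 1), B7-H4-null minus wild type (vertical axis), for tested genes (points) of the clustered histone genes and 8 related lists (horizontal axis); black bars are medians. The histone genes and the RNAs without a poly(A) tail have medians of 0.96 and 0.94, the DNA replication list 0.11 and the late neutrophil list −1.56.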

How the data were processed

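The authors deposited 1 table of RPKM per Entrez gene and library. The unit was taken from the values. TopHat2 2.0.12 and build GRCm38 are named in the submitters' processing notes, while the program that counted reads, the annotation it used and any strand setting were not given in these sources. Symbols, coordinates and promoters came from RefSeq tables of GRCm38.p6 (25275 IDs matched), transcripts from GENCODE M21. Library totals and gene lengths were recovered from the steps between values. This gave whole reads, within 0.001 read, for 14595 of the 14608 genes with a value above 0 in all 4 libraries. The filter asked for 1 RPKM in 2 or more libraries, and genes were then compared by limma (version 3.58.1, under R 4.3.3) on log2(RPKM + 1), a scale that understates changes of low genes, with a mean-variance trend and genotype as the only term. The fit was tested on simulated data. Members and lists were chosen with earlier results of these data known. The 2 pseudogenes of the clusters were left out. Named members are the 4 with the highest mean in each class, the 4 with the highest and the 4 with the lowest difference and members of special role. Genes named from related lists were taken from their most abundant and most different members, except where said. An item of the marker lists is not reported here.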

Additional observations from a re-analysis of the deposited data

How the results depend on the processing

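No histone member was called in limma under any of the 9 alternatives. Members at an unadjusted limma p under 0.05 are given for fits with all 4 libraries, beside genes higher and lower among all tested. A pseudocount of 0.1 gave 31 of 52 members, beside 594 and 868 of 12107 genes. No filter on low values gave 33 of 65, beside 799 and 1088 of 20517. The filter at 5 RPKM gave 19 of 20, beside 421 and 594 of 9161. Median-ratio scaling gave 37 of 52, beside 789 and 648 of 12107, and the replicate block 36 of 52, beside 876 and 1331. The count of all genes called, 12, became 0 with no filter on low values, 21 with the replicate block and 0 to 56 when 1 library was left out, 0 without B7-H4-null replicate 1 or 2. The median log2 difference of the tested histone members, 0.96, was 1.30 with a pseudocount of 0.1, 0.86 with no filter on low values, 1.30 with the filter at 5 RPKM, 1.04 with median-ratio scaling and 0.88 to 1.02 when 1 library was left out. It stayed 0.96 with the replicate block. The replicate 1 minus 2 differences of the genotypes correlated across genes (r = 0.247), but with 2 pairs the numbers are not shown to pair samples. The log2 ratio of summed RPKM, 1.45, was 1.17 to 1.68 when 1 library was left out, lowest without B7-H4-null replicate 1, and 1.57 with median-ratio scaling. Class sums without 1 library and related lists under median-ratio scaling were added after seeing the data. Differences near 0 changed sign when 1 library was left out. The range was −0.11 to 0.21 for H2ac11, −0.18 to 0.56 for H2bc21, −0.54 to 0.32 for H3c14, −0.23 to 0.52 for Srrt, −0.13 to 0.51 for Mcm6, −0.81 to 0.053 for Fen1 and −0.15 to 0.19 for Top2a. The cause was not tested. Many histone genes rest on under 50 reads over a group, so single-gene differences are imprecise.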
